A study of Mus musculus with 18 samples.

Results

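The introns of Htr2c, the gene of the serotonin 2C receptor, hold 5 microRNA (miRNA) precursors on mouse chromosome X: Mir764, Mir1912, Mir1264, Mir1298 and Mir448. Described here are 8 listed mature miRNAs made from them: mmu-miR-1298-5p, mmu-miR-1298-3p, mmu-miR-1264-5p, mmu-miR-1264-3p, mmu-miR-764-5p, mmu-miR-764-3p, mmu-miR-448-3p and mmu-miR-1912-3p. The set was chosen by the measured lung levels of miR-1298-5p, miR-1264-5p and miR-764-5p, which were highest in the lung in these libraries. Of the 8, 7 were among the 1431 miRNAs of the count tables, and miR-764-3p was not analysed here. Because lung levels chose the members, their lung values are given as a description with no test. Tests were made of eye against testicle and of left against right.

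Small RNA was counted in lungs, eyes and testicles of normal male C57BL/6 mice 8 to 12 weeks old, with 3 left and 3 right libraries of each organ and no treatment or mutation. The labels do not say whether the left and right libraries came from the same mice, nor whether replicates were separate animals. If libraries shared animals, p-values and SDs over 6 libraries of an organ overstate the replication. Total counts were 2538402 to 2790471 in lung libraries, 2451484 to 2680204 in eye libraries and 952608 to 1893132 in testicle libraries.

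A miRNA precursor inside an intron is transcribed with its host gene or from a start of its own. Drosha cuts the hairpin from the transcript and Dicer then releases a short duplex, from which mostly the 5p or the 3p strand is kept by an Argonaute protein. The seed, bases 2 to 8 of the mature strand, pairs with target messages. Htr2c itself is best known from neurons and from the choroid plexus, where the receptor couples to Gq and its message is edited. The libraries hold small RNA only, so the Htr2c message was not measured here.

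Mature sequences of 7 of the 8 listed members were in the RefSeq miRNA table of GRCm38.p6, and they are shown to compare their seeds, which are in capitals:
miR-1298-5p: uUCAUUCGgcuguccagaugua
miR-1298-3p: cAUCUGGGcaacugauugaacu
miR-1264-3p: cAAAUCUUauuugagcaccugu
miR-764-5p: gGUGCUCAcauguccuccu
miR-764-3p: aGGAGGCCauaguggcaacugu
miR-448-3p: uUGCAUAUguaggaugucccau
miR-1912-3p: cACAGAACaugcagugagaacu

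The 7 seeds all differed from each other, so these miRNAs share a host gene but not a seed. For 6 of them no other mature name in the RefSeq table had the same seed. The exception was miR-764-3p, whose seed was also that of miR-7062-5p, which had 0.227 ± 0.356 counts per 1e6 (CPM) in lungs, 0.0540 ± 0.132 in eyes and 0.179 ± 0.438 in testicles (SD, n = 6 each). Bases 12 to 19 of miR-1264-3p (UGAGCACC), outside its seed, were complementary to bases 1 to 8 of miR-764-5p (GGUGCUCA), which include its seed. That 8-base stretch stood in 5 of 1679 mature names of the table, or 0.298%. This pair was singled out after all pairs had been compared, and whether the strands meet in a cell was not measured.

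Htr2c spans chrX:146962513-147197277 on the plus strand of GRCm38 (234765 bp), and its transcript Htr2c-201 has 6 exons and 5 introns. Intron 2 (90779 bp) holds Mir764 at chrX:147002259-147002366, Mir1912 at chrX:147009441-147009527, Mir1264 at chrX:147010601-147010686 and Mir1298 at chrX:147064905-147065002. Intron 4 (93522 bp) holds Mir448 at chrX:147158210-147158321. None of the 5 overlaps an exon of that transcript, and all lie on the strand of Htr2c. Mir764, Mir1912 and Mir1264 stand within 8428 bp, while Mir1298 follows Mir1264 after a gap of 54218 bp and Mir448 follows Mir1298 after 93207 bp. The highest lung level therefore belonged to a precursor that stood apart from the group of 3.

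**Figure D1:**
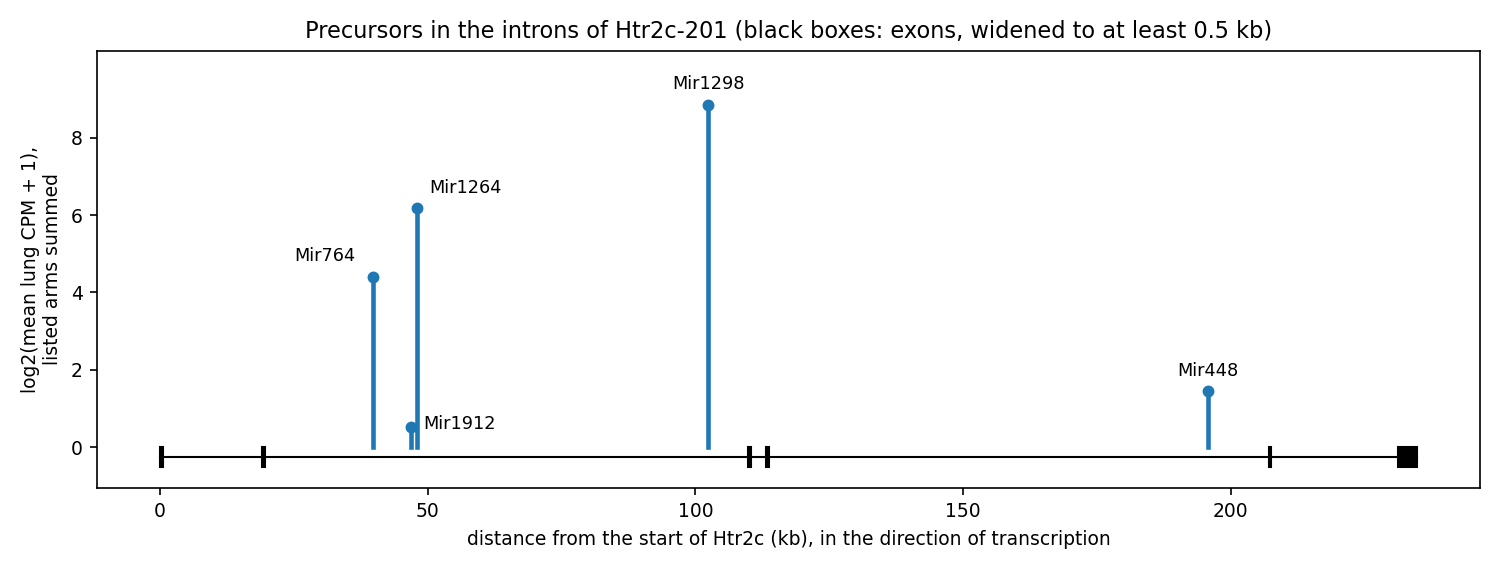
The x axis is the distance from the start of Htr2c in kb, black boxes are the 6 exons of Htr2c-201, and each blue stem is a precursor whose height is the log2 of its listed arms' summed mean lung level (TMM-scaled CPM + 1). The stem of Mir1298 is the highest, and the stem of Mir1912, between Mir764 and Mir1264, is the lowest.

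The Mir1298 hairpin is shown because its 5p arm held most of the counts of the whole family. In the following line the capitals mark the 5p and then the 3p mature strand:
Mir1298: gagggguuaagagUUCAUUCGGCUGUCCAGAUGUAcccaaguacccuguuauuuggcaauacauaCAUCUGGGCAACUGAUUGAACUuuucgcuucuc

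RNAfold placed 39 base pairs in these 98 bases, with a predicted free energy of -46.3 kcal/mol.

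MiR-1298-5p was the most abundant member in every lung and in every eye. Its counts were 1276, 1852 and 1546 in left lungs and 578, 1890 and 1271 in right lungs. They were 71, 63 and 87 in left eyes, 60, 66 and 63 in right eyes, and 0, 1, 0, 1, 2 and 0 in the 6 testicles. The organs did not overlap: the lowest lung had several times the counts of the highest eye, and testicles had almost none. The level averaged 463 ± 156 CPM in lungs, 25.8 ± 1.63 in eyes and 0.466 ± 0.551 in testicles (SD, n = 6 each), where CPM is scaled by the trimmed mean of M values (TMM). By mean CPM it ranked 109 of 1431 miRNAs in lungs, 315 in eyes and 794 in testicles. Pooled over 6 libraries and divided by library totals, its lung level was 19.6 times that of the eye (95% exact counting interval 17.7 to 21.7) and 1165 times that of the testicle (455 to 4275, from 4 testicle counts). In whole organs, fewer cells of a type and less RNA per cell cannot be told apart.

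MiR-1264-5p had the same order of organs at a lower level. Its counts were 199, 169 and 218 in left lungs, 59, 156 and 191 in right lungs, 13, 16, 14, 14, 14 and 14 in the eyes, and 1 in each of 2 testicles with 0 in the other 4. The 6 eyes were nearly even, while the right lung with 59 counts was far below the other lungs. The mean was 54.2 ± 17.0 CPM in lungs, 5.41 ± 0.659 in eyes and 0.329 ± 0.512 in testicles (SD, n = 6 each). The pooled lung level was 11.1 times that of the eye (8.92 to 14.1).

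The opposite arm, miR-1264-3p, had 49, 36 and 67 counts in left lungs and 36, 58 and 65 in right lungs. It had 0, 6 and 2 counts in left eyes, 4, 2 and 1 in right eyes, and 0 in all 6 testicles. Every lung stood above every eye, but 1 eye was at 0 like the testicles. The pooled lung level was 19.8 times that of the eye (11.8 to 35.8). With a floor of 3 counts over the 6 testicles, it was 57.4 times that of the testicle. Counting error of the lung was left out, so this is not a strict lower bound.

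MiR-764-5p was the most even member between lungs. It had 54, 66 and 73 counts in left lungs, 62, 50 and 58 in right lungs, 5, 5 and 8 in left eyes, 5, 2 and 4 in right eyes, and 1 count in a single testicle. No lung overlapped an eye. Every eye was above every testicle, but right eye 2 had only 2 counts (0.801 CPM) and right testicle 2 had 1 (0.637). A testicle library with no count can still hold up to 1.58 to 3.15 CPM, so single eyes and testicles are not clearly separated. The mean was 20.2 ± 2.30 CPM in lungs, 1.80 ± 0.581 in eyes and 0.106 ± 0.260 in testicles (SD, n = 6 each), and the pooled lung level was 11.9 times that of the eye (8.18 to 18.1).

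The other 3 members in the tables were at or near the limit of detection in every organ. A library with no count of a miRNA can still hold up to 3 counts of it, or 1.08 to 1.18 CPM in a lung library, 1.12 to 1.22 in an eye library and 1.58 to 3.15 in a testicle library. Intervals and limits cover counting error only, since reads lacking molecular identifiers may be copies of the same molecule. MiR-448-3p, from intron 4, had 5, 8 and 9 counts in left lungs, 4, 0 and 6 in right lungs, 4 in 1 eye, 1 in another eye and 1 in 1 testicle. MiR-1912-3p had 0 to 2 counts in a lung, 1 count in 1 eye and none in testicles. Mir1912 lies between Mir764 and Mir1264, so its neighbours on both sides were detected in every lung while it was seen in 5 of 6.

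MiR-1298-3p was the member that did not follow the order of the others. It had 1, 1 and 3 counts in left lungs, 0, 1 and 1 in right lungs, 0, 2 and 0 in left eyes, 2 in each right eye and 0 in testicles. Its pooled lung level was 0.835 times that of the eye, and the interval from 0.258 to 2.64 (7 lung and 8 eye counts) spans equality. That interval excludes a lung level of the 3p arm as far above the eye as the 19.6 times of the 5p arm, and its upper bound is 2.64 times.

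In order of the lung level, members stood as miR-1298-5p, miR-1264-5p, miR-764-5p, miR-1264-3p, miR-448-3p, miR-1912-3p and miR-1298-3p. MiR-764-5p (17.8 to 23.9 CPM over lungs) and miR-1264-3p (at most 20.9) overlapped between lungs, as did the 3 lowest members. The leading 2 did not overlap, with 223 to 681 CPM for miR-1298-5p and 22.8 to 72.2 for miR-1264-5p. In eyes the first 4 members came in the same order, and there miR-1264-5p (4.53 to 6.08 CPM) did not overlap miR-764-5p (0.801 to 2.59).

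**Figure D2:**
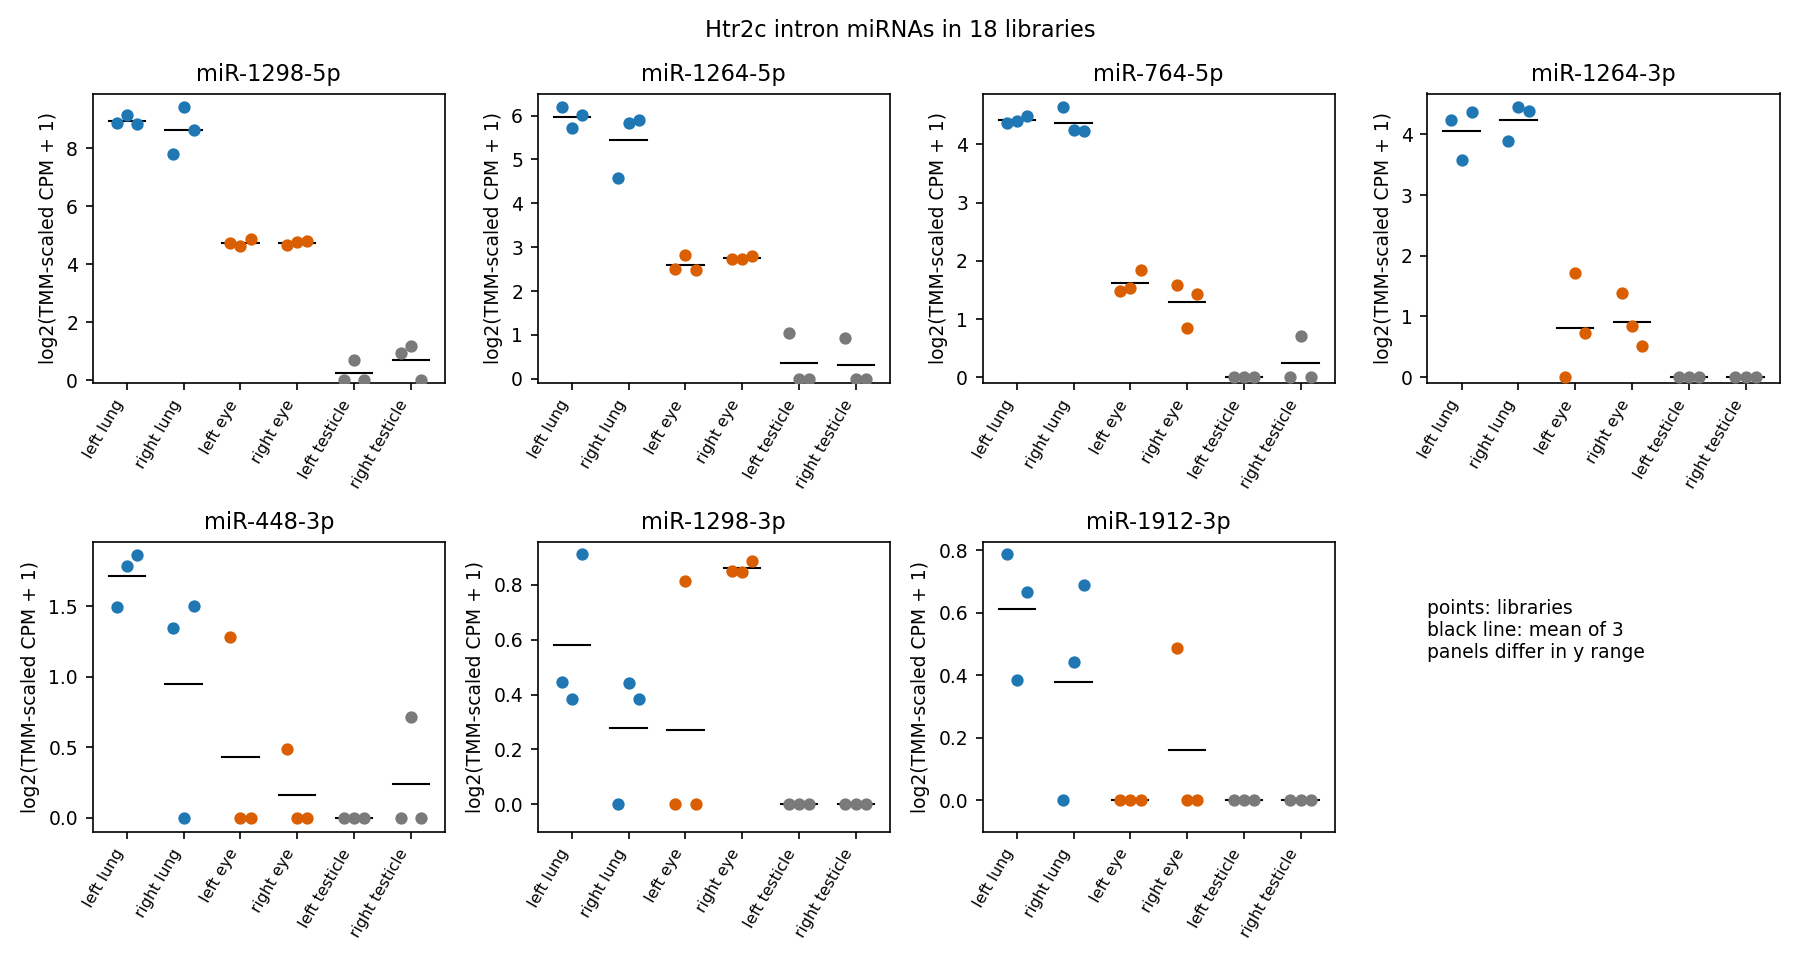
Each panel is a member, with log2(TMM-scaled CPM + 1) on the y axis (its range differs between panels) and the 6 groups on the x axis, lungs in blue, eyes in orange and testicles in grey. Points are libraries and black lines are means of 3 libraries. In the panels of miR-1298-5p, miR-1264-5p, miR-764-5p and miR-1264-3p every lung lies above every eye and testicle, while in the other 3 panels the organs overlap.

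Counts over all arms of the 5 hairpins in the tables, including miR-448-5p and miR-1912-5p, which are not among the 8, summed to 739 to 2157 in a lung, 85 to 111 in an eye and 0 to 4 in a testicle. MiR-1298-5p made 78.2% to 87.6% of that sum in lungs and 68.5% to 78.4% in eyes. It thus held the majority of the family's counts in both organs.

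Of the 7 members in the tables, 4 passed the filter on low counts over all 18 libraries, and 642 miRNAs did. Every lung was above every eye and every testicle for these 4, a pattern shown by 67 of the 642 (10.4%). Since the lung level chose the members, nothing is read from that. In the fit over all miRNAs, miR-1298-5p differed between lung and eye by a log2 fold change of 4.16 (SE 0.31), miR-1264-3p by 4.10 (0.45), miR-764-5p by 3.46 (0.26) and miR-1264-5p by 3.30 (0.32). These are within about 1 log2 unit of each other although the levels differed far more. As background, edgeR called 59.8% of the 642 between lung and eye (24.5% higher and 35.4% lower in lung) and 27.4% higher in lung than in testicle.

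The eye stood between lung and testicle, and this comparison did not choose the members. In eyes against testicles, miR-1298-5p and miR-1264-5p were higher in the eye by edgeR's quasi-likelihood test, as were 40.2% of the 642 miRNAs tested (79.3% were called in either direction). The 3 members that did not pass the filter had no such test. MiR-764-5p and miR-1264-3p also came out higher in the eye in the fit of 18 libraries, but they passed its filter only through their lung counts. A fit of the 12 eye and testicle libraries left both out, so their values are a description with no test. MiR-1298-5p averaged 25.8 CPM in eyes and 0.466 in testicles, a log2 fold change of 5.66 (SE 0.46, Benjamini-Hochberg adjusted p = 8.7e-09). The pooled level was 59.4 times higher in the eye (95% counting interval 23.0 to 219). Without left testicle 2, which has 1 of the 4 testicle counts, the log2 fold change was 6.97.

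MiR-1264-5p was 24.6 times higher in the eye when pooled (6.62 to 207), and edgeR gave a log2 fold change of 4.08 with an SE of 0.59 (adjusted p = 8.3e-06). That value was 5.42 without left testicle 1 and 5.17 without right testicle 1, the libraries with its 2 counts. MiR-764-5p, kept by its lung counts, was 16.8 times higher in the eye when pooled (2.79 to 687). As a description, edgeR gave a log2 fold change of 3.84 with an SE of 0.68, or 5.09 without right testicle 2. For these 3 members every eye was above every testicle, which held for 33% of the 642. For miR-764-5p the lowest eye had 2 counts and the highest testicle 1.

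MiR-1264-3p, also kept by its lung counts, had an edgeR log2 fold change of 4.21 with an SE of 1.36 on few counts. It had 15 counts over 6 eyes, and 0 over 6 testicles. With a floor of 3 counts over the testicles, its pooled eye level was 2.90 times that of the testicle. Counting error of the eye was left out, so this is not a strict lower bound. Left eye 2 held 6 of the 15 counts, and without it the edgeR log2 fold change was 3.52. Among the 3 members without a fit, the exact two-sided permutation test of eye against testicle gave p = 0.0606 for miR-1298-3p, 0.727 for miR-448-3p and 1 for miR-1912-3p (adjusted over the 3, 0.182, 1 and 1). The smallest p this test allows is 0.00216.

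Left and right organs were the design of the series, and no member passed the test between sides. In lungs, miR-1298-5p averaged 494 ± 62.2 CPM on the left and 431 ± 232 on the right (SD, n = 3 each), and the edgeR log2 fold change was 0.16 with an SE of 0.38 (adjusted p = 0.917). MiR-1264-5p averaged 62.6 ± 10.4 CPM in left lungs and 45.8 ± 20.0 in right lungs (edgeR log2 fold change 0.41 with an SE of 0.43, adjusted p = 0.908). The wider spread on the right came with the low library right lung 1, described next. MiR-764-5p averaged 20.4 ± 0.936 CPM in left lungs and 19.9 ± 3.49 in right lungs, and miR-1264-3p 16.2 ± 4.56 and 18.2 ± 3.79.

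In eyes, miR-1298-5p averaged 25.9 ± 2.14 CPM on the left and 25.8 ± 1.45 on the right (edgeR log2 fold change 0.01 with an SE of 0.20, adjusted p = 0.987). Left and right were nearly equal, and the sides overlapped. MiR-1264-5p, with an edgeR adjusted p = 0.982, was the other member tested in eyes, and no member passed the filter in testicles alone. EdgeR called 0 of 487 miRNAs between left and right eyes, 0 of 430 in lungs and 0 of 464 in testicles. At an unadjusted p under 0.05 there were 18, 1 and 36, and DESeq2 called 1, 0 and 1. For the members without a fit, 3 against 3 libraries allow no p below 0.1 in the exact permutation test. A joint test of whether the side difference varied between organs called 0 of 642 miRNAs, with an edgeR adjusted p of 1 for each of the 4 members.

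Right lung 1 had the lowest miR-1298-5p and miR-1264-5p of the 6 lungs and, in TMM-scaled CPM, the highest miR-764-5p. By library totals its miR-764-5p, at 23.9 CPM, was below that of left lung 2 (24.2) and left lung 3 (26.2). MiR-1298-5p was 223 CPM there and 390 to 681 CPM in the other 5 lungs. MiR-1264-5p was 22.8 CPM there and 51.6 to 72.2 in the other 5. MiR-764-5p was 23.9 TMM-scaled CPM there and 17.8 to 21.4 in the other 5, from 62 counts against 50 to 73. It did not share the low level of miR-1298-5p and miR-1264-5p in this library. The ratio of miR-1298-5p to miR-764-5p counts was 9.32 in right lung 1, against 23.6, 28.1, 21.2, 37.8 and 21.9 in the other lungs. The ratio of miR-1264-5p to miR-764-5p was 0.952 there and 2.56 to 3.69 elsewhere. The ratio of miR-1298-5p to miR-1264-5p, at 9.80, lay inside the range of the other lungs (6.41 to 12.1).

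These ratios do not depend on the scaling of the library. Without right lung 1 the lung mean was 511 ± 114 CPM for miR-1298-5p, 60.5 ± 7.92 for miR-1264-5p and 19.4 ± 1.53 for miR-764-5p (SD, n = 5). Leaving this library out moved no lung mean of a member by over 1.5 times.

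Other miRNAs also set this library apart. It had 696 miRNAs detected at 2597041 total counts, against 782 to 852 detected in the other lungs. The 5 epithelial miRNAs of the miR-200 family, which keep epithelial cells from a mesenchymal state, summed to 22802 CPM in right lung 1 and 28334 to 32333 in the other lungs. From highest to lowest sum of this list, the lungs stood as right lung 2, left lung 2, right lung 3, left lung 1, left lung 3 and right lung 1, with 681, 566, 390, 463, 454 and 223 CPM of miR-1298-5p, so the orders matched at both ends but not for right lung 3. Right lung 1 also had the highest sum of the 2 smooth muscle miRNAs (45431 CPM, against 33585 to 38465 in the other lungs) and of the 6 eye miRNAs (6506, against 2586 to 4458). Its leukocyte sum (9252 CPM, against 9514 to 12817) and its testicle list sum (20.8, against 35.2 to 158) were the lowest, the leukocyte sum close to that of right lung 3. MiR-490-5p, from an intron of the muscarinic receptor gene Chrm2, was 627 CPM there and 92.5 to 130 in the other 5 lungs. The part of these differences in the members' levels was not tested.

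**Figure D3:**
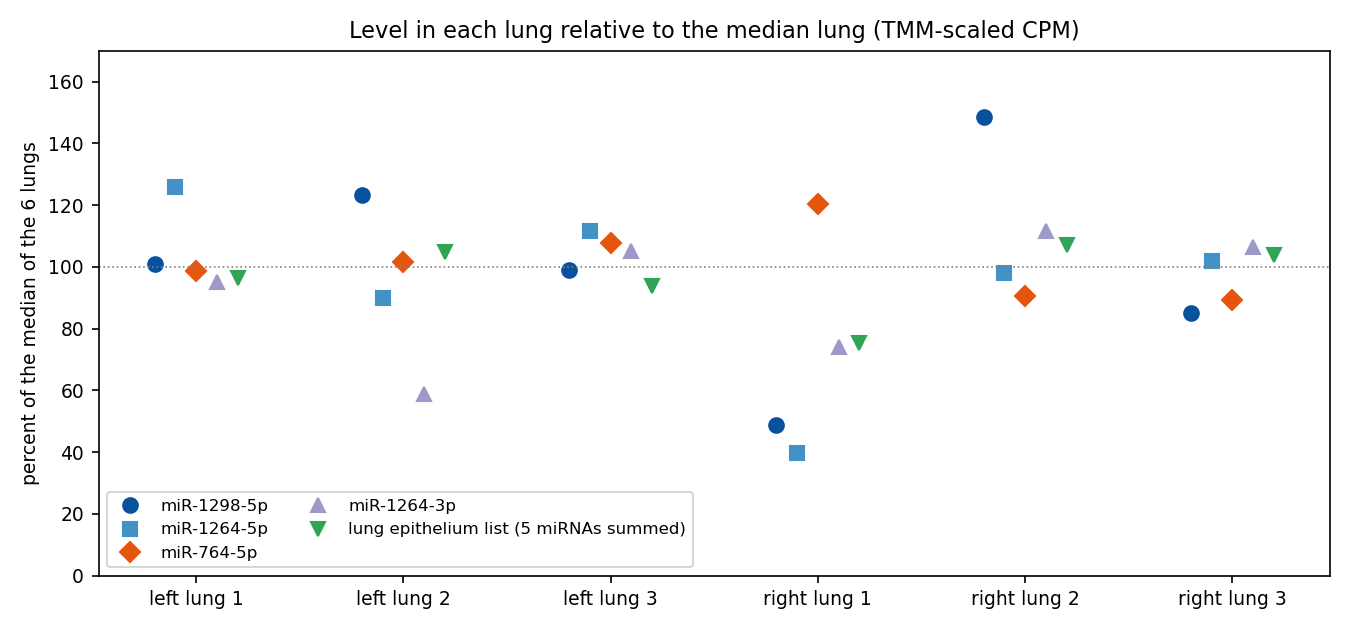
For each lung on the x axis, the y axis gives the level of 4 members and of the summed lung epithelium list as a percent of the median of the 6 lungs (TMM-scaled CPM, no error bars because each point is a library). In right lung 1, miR-1298-5p was 48.7% and miR-1264-5p 39.7% of the median lung, while miR-764-5p was 120%.

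Members differed in how even they were between lungs. The coefficient of variation over 6 lungs was 11.4% for miR-764-5p, 22.8% for miR-1264-3p, 31.3% for miR-1264-5p and 33.6% for miR-1298-5p. Without right lung 1 it was 7.88% for miR-764-5p, 13.1% for miR-1264-5p and 22.4% for both miR-1264-3p and miR-1298-5p, so the place of miR-1264-5p in this order rests on that library. Among 337 miRNAs with a mean of at least 10 CPM in the lung, the median was 33.4%, and 1.48% had a smaller value over the 6 lungs than miR-764-5p. So by this measure miR-764-5p was among the most even miRNAs of the lung. It had only 50 to 73 counts in a lung, and counting error was not separated from this spread.

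The arms of a hairpin come from the same precursor, and their shares describe which strand was kept. For miR-1298 the 5p arm made 99.9% of both arms in lungs (95% exact binomial interval 99.8% to 100%) and 98.1% in eyes (96.3% to 99.2%). For miR-1264 both arms were kept in sizeable amounts, and the 5p arm made 76.1% in lungs (73.7% to 78.4%) and 85.0% in eyes (76.5% to 91.4%). Its share was 80.2%, 82.4% and 76.5% in left lungs and 62.1%, 72.9% and 74.6% in right lungs. The lowest share was that of right lung 1 (51.6% to 71.9%), in which the 5p arm was 38.9% and the 3p arm 70.7% of the median of the other 5 lungs. In eyes the share per library was 72.7% to 100%, from 13 to 22 counts, and overlapped that of the lungs. For miR-448, whose 5p arm is outside the list, the 3p arm was the major strand: 32 counts in lungs against 6 of the 5p arm.

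**Figure D4:**
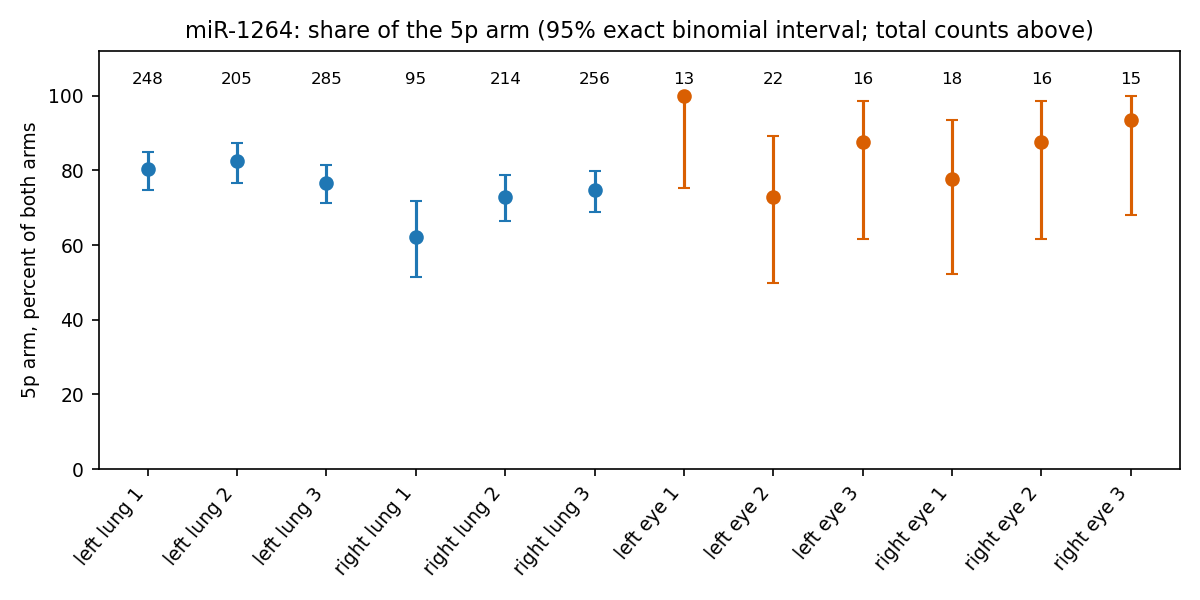
The y axis is the 5p arm's share of the miR-1264 counts in percent, with the 6 lungs (blue) and then the 6 eyes (orange) on the x axis. Bars are 95% exact binomial intervals and the numbers above are the counts of both arms. Lung shares lie between 62.1% and 82.4%, and the intervals of the eyes, from at most 22 counts, are wide.

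To place the pattern among other miRNAs, the 542 miRNAs with a mean of at least 10 CPM in some organ were taken, members included. Non-members among them were ranked by the root mean square difference of centred log2(CPM + 1) from miR-1298-5p over the 18 libraries. The nearest were miR-141-3p (1.43), miR-200c-3p (1.56), miR-141-5p (1.74), miR-200c-5p (1.81) and miR-490-5p (1.86), against a median of 3.98. The first 4 are both arms of miR-141 and miR-200c, of the miR-200 family. MiR-141-3p had 1671 ± 502 CPM in lungs, 125 ± 45.7 in eyes and 37.0 ± 8.45 in testicles (SD, n = 6 each). MiR-200c-3p had 10237 ± 1331 in lungs, 1875 ± 331 in eyes and 413 ± 67.6 in testicles. Both follow the order lung, eye, testicle, with smaller steps than miR-1298-5p. MiR-490-5p came close with 201.2 ± 209 CPM in lungs, 157 ± 33.3 in eyes and 1.05 ± 0.650 in testicles, and its lung mean includes the high value of right lung 1.

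Of the members, miR-1264-5p was at 1.30 from miR-1298-5p, nearer than any non-member. MiR-764-5p was at 1.76, with 3 non-members nearer, and miR-1264-3p at 1.89, with 5 nearer. The measure is a description, and the members were chosen partly for this order of organs.

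**Figure D5:**
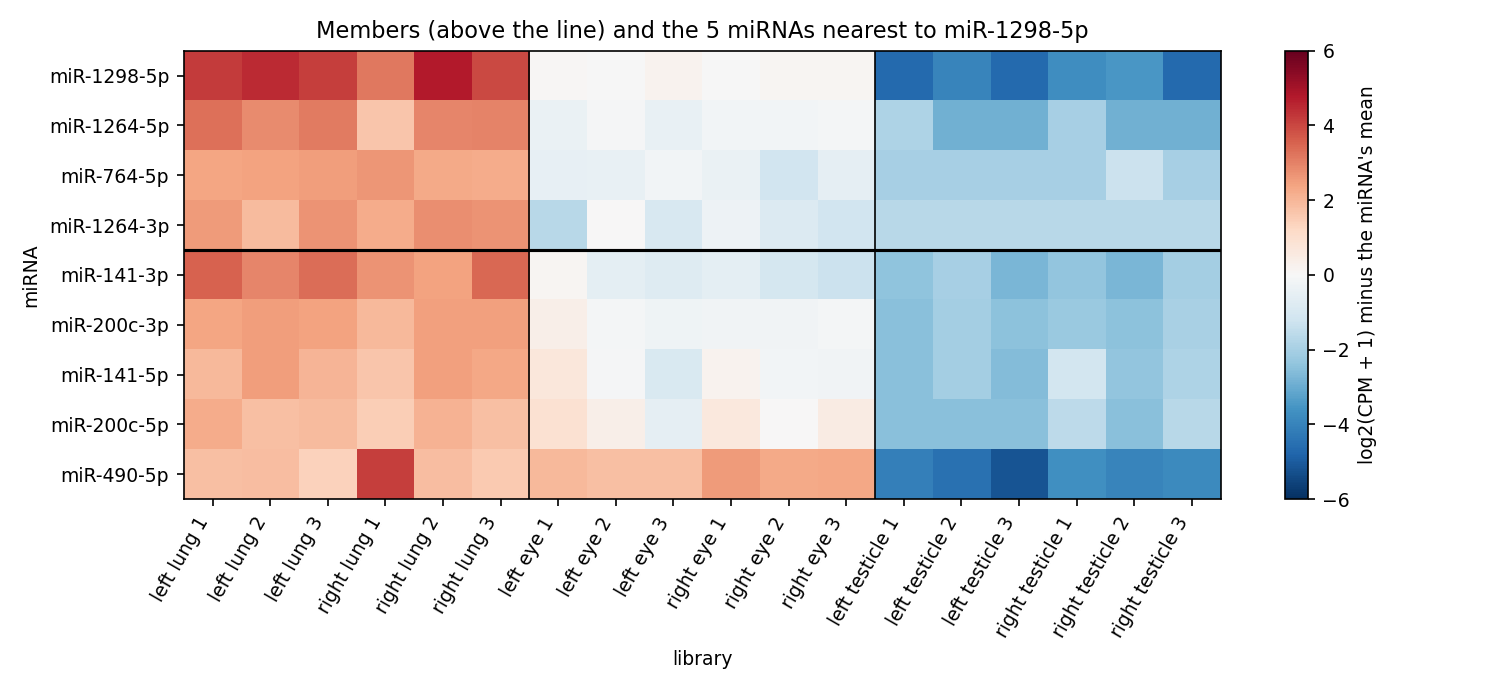
Colours give log2(TMM-scaled CPM + 1) minus the miRNA's own mean over 18 libraries, with libraries on the x axis (lungs, eyes, testicles) and miRNAs on the y axis, 4 members above the line and the 5 nearest non-members below it. All rows are high in lungs and low in testicles, except that miR-490-5p is about as high in eyes as in 5 lungs and highest in right lung 1.

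The organs carried the miRNAs of their known cell types, and no marker of any list was at 0 in every lung. The endothelial pair from miR-126a summed to 46766 to 65042 CPM in lungs, 20558 to 29435 in eyes and 23535 to 31168 in testicles. The 7 neuronal miRNAs, of the cell type best known for Htr2c, summed to 116 to 356 CPM in lungs, 40300 to 71788 in eyes and 4284 to 5164 in testicles. The neuronal sum was lowest in lungs, and a sum over a whole organ does not show the level in a small group of cells. The miR-200 family sum was 22802 to 32333 CPM in lungs, 4162 to 9055 in eyes and 2093 to 3604 in testicles. The 4 ciliated cell miRNAs in the tables summed to 6789 to 17400 CPM in lungs and 145 to 232 in eyes. Their sum was 80193 to 115150 in testicles, where germ cells also make them. Leukocyte miRNAs summed to 9252 to 12817 CPM in lungs, 1124 to 1661 in eyes and 878 to 1471 in testicles. Smooth muscle miRNAs summed to 33585 to 45431, 15107 to 22353 and 32168 to 38776 CPM in the same order of organs. The red cell sum was 1483 to 5807, 1297.8 to 4048 and 231 to 10458 CPM, and the striated muscle sum 69.3 to 544, 7065 to 12803 and 925 to 1525 CPM. The eye list gave 2586 to 6506 CPM in lungs and 199789 to 255949 in eyes, and the testicle list 20.8 to 158 CPM in lungs and 76137 to 123274 in testicles. The part of any of these cell types in the members' levels was not tested.

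The listed other miRNAs inside introns of receptor and channel genes mostly had another order of organs. This list was chosen with earlier results of these data known, and its miR-204-5p and miR-211-5p are also on the eye list. Its direction is therefore not read as a trait of receptor introns in general. Of 13 in the tables, hosted by Chrm2, Grid1, Trpm1, Trpm3, Gabre and Grm8, 10 were tested. In lung against eye, 1 rose and 7 fell (median log2 fold change -6.85, against -0.00 over all 642). In lung against testicle 3 rose and 4 fell (2 to 4 fell, depending on the scaling), and in eye against testicle 9 rose and 1 fell (median 5.65, against 0.05 over all). The most abundant of them, miR-204-5p from Trpm3, had 401 ± 457 CPM in lungs, 48417 ± 4479 in eyes and 15086 ± 4477 in testicles. Of the 10, miR-224-5p, from an intron of the X-linked Gabre, was the miRNA with every lung above every eye and testicle. That pattern was shown by 10.4% of the 642.

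Members are X-linked, and the 74 other X-linked miRNAs tested, of 118 in the tables, were set beside them. In lung against eye, 29 rose and 4 fell (median log2 fold change 1.03), and in lung against testicle 25 rose and 42 fell (median -1.29, against -0.90 over all 642). In eye against testicle, 12 rose and 53 fell (median -3.22), against 258 higher and 251 lower over all 642 (median 0.05). Thus eye above testicle, the direction of miR-1298-5p and miR-1264-5p, was the direction of a minority of these X-linked miRNAs. They include miRNAs abundant in testicles, such as miR-470-5p below. Of the 74, 10 had every lung above every eye and testicle, against 67 of all 642 (10.4%). The 3 most abundant were miR-470-5p, with 18.4 ± 13.4 CPM in lungs, 3.51 ± 2.88 in eyes and 32136 ± 9362 in testicles, followed by miR-322-5p and miR-465b-3p. MiR-322-5p had 14282 ± 1437 CPM in lungs, 1377 ± 126 in eyes and 14218 ± 2853 in testicles.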

How the data were processed

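Per the labels' protocols, a spin-column kit gave total RNA, and libraries followed the BGI-500 procedure. The authors deposited 1 table of raw counts per library, with 1431 mature miRNAs and whole numbers that were not scaled, per the file headers. The submitters' processing notes name GRCm38.p6. Which aligner and counter were used, and how multi-mapping reads and molecular identifiers were handled, is not given in the sources used here.

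Tests between groups used edgeR 4.0.16 under R 4.3.3 (TMM scaling, filterByExpr by group, quasi-likelihood test, Benjamini-Hochberg threshold 0.05). Organs were compared in a fit of 6 groups over 18 libraries, where 642 miRNAs passed the filter and 789 did not, and sides within each organ's 6 libraries. Levels are TMM-scaled CPM, while pooled ratios and limits use library totals. DESeq2 1.42.0 and other scalings, filters and left-out libraries served as alternatives, and the procedure was tested on simulated counts. No pair of libraries had identical counts. Whether same-numbered libraries share a mouse is unknown, and the fits were made without a replicate block.

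Coordinates and sequences came from RefSeq (GRCm38.p6) and exons from GENCODE M21. RNAfold 2.7.2 predicted the hairpin energy. No correction was made for sequence-dependent ligation, which bears on levels compared between miRNAs.

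The members and the lists were chosen with earlier results of these data known. The text names all members, the 5 miRNAs nearest to miR-1298-5p, and at most 3 of highest mean CPM in the receptor and X-linked lists. Marker lists are given by their sums. MiR-490-5p in right lung 1, miR-224-5p and miR-7062-5p were named after their values were seen or for a shared seed.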

Additional observations from a re-analysis of the deposited data

Results flagged for a closer look

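The highest or lowest library was examined in 22 sets of 6 libraries of an organ, each holding a member's level or a hairpin's 5p share. A gap to the nearest other library was flagged if it exceeded Dixon's 95% critical share of the set's range. Chance alone gives this in about 1 of 20 sets of normally distributed values. That rate does not hold for sets of very low counts, where 1 count beside zeros always passes. There were 4 such gaps, all at 1 to 4 counts. MiR-764-5p was 0.637 CPM in right testicle 2, from 1 count, and 0 in the other testicles. MiR-448-3p was 0.637 CPM in the same library, also from 1 count, and 0 in the other testicles. MiR-448-3p was 1.43 CPM in left eye 1, from 4 counts, against 0 or 1 count in the other eyes. MiR-1912-3p was 0.402 CPM in right eye 1, from 1 count, and 0 in the other eyes. The low miR-1298-5p and miR-1264-5p of right lung 1 had gaps of 0.364 and 0.584 of the range and did not pass this limit.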

How the results depend on the processing

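MiR-1298-5p and miR-1264-5p kept their direction and their call in eye against testicle under every alternative. Log2 fold changes were 5.20 to 6.97 for miR-1298-5p and 3.64 to 5.42 for miR-1264-5p. The edgeR or DESeq2 adjusted p was at most 9.1e-08 and 6.9e-05. MiR-764-5p (3.14 to 5.09) and miR-1264-3p (2.72 to 4.47) kept their direction where fitted, which is given as a description only. Of 26 alternatives, the fit of only the 12 eye and testicle libraries did not test miR-764-5p and miR-1264-3p, which its filter left out. Every alternative that tested miR-764-5p or miR-1264-3p included lung libraries. Calls over all miRNAs were 494 to 615 between eye and testicle, 369 to 495 between lung and eye and 454 to 604 between lung and testicle. Lung against eye gave 157 higher and 227 lower, and 262 higher and 196 lower with left testicle 1 as the TMM reference. The median log2 fold change of all miRNAs in that comparison ran from -0.22 to 0.54 over the alternatives. The members' log2 differences of lung over eye stayed far above that shift, at 3.22 or more.

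Between sides, eyes gave 6 calls with no filter, 1 with DESeq2 and 0 to 1 when a library was left out (1 without left eye 2). Lungs gave 1 call with no filter. Testicles gave 1 with DESeq2 and 0 to 1 when a library was left out (1 without left testicle 2 and 1 without right testicle 1). MiR-1298-5p and miR-1264-5p in eyes, and the 4 members tested in lungs, were not among those calls. The mean lung level of miR-764-5p was 22.7 CPM by library totals and 20.2 with TMM scaling. With the replicate number as a block, edgeR gave 509 calls between eye and testicle (259 higher, 250 lower) and 0 between sides of any organ. Same-numbered left and right libraries deviated together with a correlation over 0.1 in 0 of 3 eye, 2 of 3 lung and 2 of 3 testicle pairs. Differently numbered left and right pairs reached 0.320 in eyes, 0.0456 in lungs and 0.0986 in testicles. Whether same-numbered libraries share mice was not tested. The receptor and X-linked list counts, recomputed after seeing the data under other scalings, kept their majority direction except receptor introns in lung against testicle (3 higher and 2 to 4 lower). The nearest 5 miRNAs were the same with a pseudocount of 0.5 and with no minimum level.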
